A study of Mus musculus with 2 samples.

Results

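The pacemaker and slow conduction genes Hcn4, Cacna1g, Shox2, Isl1 and Tbx18 were examined for H3K27ac, the acetylation of histone H3 at active promoters and enhancers, in the embryonic mouse heart. The members were all called H3K27ac peaks whose midpoint lay in a fixed mm9 window around each gene. There were 57 such peaks among the 154664 peaks of the series, 29 of 87572 in the atrioventricular canal (AVC) and 28 of 67092 in the chambers. The AVC library came from sorted EGFP-positive cells and the chamber library from sorted Katushka-positive cells, EGFP and Katushka being a green and a far-red fluorescent protein. Both groups were FVB/N embryos of stage E10.5 labelled as carrying both reporters. The promoters that drive the reporters, the number of embryos pooled and the cell types within each sort are not given in the sources used here. There was 1 library per tissue, so no difference below has a replicate check, no test was made, and each interval is an exact (Clopper-Pearson) 95% interval that covers counting error only. The depth of the libraries is unknown.

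The AVC is a band of slowly conducting myocardium that separates the atria from the ventricles and gives rise to the atrioventricular node, and the chambers are its fast-conducting neighbours. Hcn4 encodes the main hyperpolarization-activated channel of the pacemaker current, and Cacna1g encodes a T-type calcium channel of nodal cells. Shox2, Isl1 and Tbx18 encode transcription factors of the sinus node and the venous pole: Shox2 and Isl1 act in the pacemaker programme, and Tbx18 in the formation of the sinus node head and the epicardium. By order in the RefSeq gene table, which is for another build, the nearest protein-coding neighbours were Rec114 and Neo1 for Hcn4, Abcc3 and Spata20 for Cacna1g, Ptx3 and Rsrc1 for Shox2, Pelo and Parp8 for Isl1, and Cep162 and Nt5e for Tbx18. A peak in a window was not assigned to a gene, since no mm9 gene positions were used here, and the tissue labels were not checked against marker genes for the same reason.

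The promoters of these genes are shown for their base composition, for motifs of cardiac transcription factors and for the TATA box, as a feature the windows did not use. RefSeq sequences of the GRCm38.p6 build were at hand for 4 genes and not for Cacna1g. Each run below is the 250 bases before the gene's start, 5′ to 3′ on the gene's strand. Capitals mark matches on either strand. The motif searched for GATA factors was AGATAA. For T-box factors it was GGTGTNA. For NKX2-5 it was TNAAGTG, and for the TATA box TATAAA. No match overlapped another. Whether any of the mm9 peaks lies on these bases was not determined.
Hcn4: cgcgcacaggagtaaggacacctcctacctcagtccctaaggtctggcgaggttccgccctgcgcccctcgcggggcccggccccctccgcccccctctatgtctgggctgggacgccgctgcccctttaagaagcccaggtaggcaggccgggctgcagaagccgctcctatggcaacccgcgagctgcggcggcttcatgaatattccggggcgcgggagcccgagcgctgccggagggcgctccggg
Shox2: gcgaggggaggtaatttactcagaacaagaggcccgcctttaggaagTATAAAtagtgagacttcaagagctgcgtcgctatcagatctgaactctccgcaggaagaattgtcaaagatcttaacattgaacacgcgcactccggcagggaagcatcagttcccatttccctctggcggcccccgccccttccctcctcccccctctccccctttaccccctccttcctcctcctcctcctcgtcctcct
Isl1: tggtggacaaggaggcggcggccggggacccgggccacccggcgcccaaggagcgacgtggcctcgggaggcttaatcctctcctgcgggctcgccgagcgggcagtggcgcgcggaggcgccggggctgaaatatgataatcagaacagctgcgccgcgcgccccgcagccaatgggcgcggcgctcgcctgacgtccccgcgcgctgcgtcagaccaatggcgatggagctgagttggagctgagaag
Tbx18: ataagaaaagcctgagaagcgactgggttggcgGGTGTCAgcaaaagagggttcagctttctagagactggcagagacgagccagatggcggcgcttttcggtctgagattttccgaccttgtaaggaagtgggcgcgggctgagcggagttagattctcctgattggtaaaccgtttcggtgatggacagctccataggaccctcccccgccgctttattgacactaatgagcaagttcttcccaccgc
The promoters lie at chr9:58822699-58822948 on the plus strand (Hcn4), chr3:66981772-66982021 on the minus strand (Shox2), chr13:116309689-116309938 on the minus strand (Isl1) and chr9:87731261-87731510 on the minus strand (Tbx18), all in GRCm38.p6. GC content was 71.2% at both Hcn4 and Isl1, 55.6% at Shox2 and 54% at Tbx18, against a median of 52.4% (interquartile range 45.2 to 61.2) over 32851 promoters of this length. The Isl1 promoter held 33 CpG dinucleotides, Hcn4 25, Tbx18 15 and Shox2 11, against a median of 6 (interquartile range 2 to 16). Tbx18 and Shox2 thus lay within that range. Of the 4 promoters, Shox2 alone held TATAAA, 203 bases before its start, a motif present in 12.4% of all promoters. That share counts a match anywhere in the 250 bases, and whether the Shox2 match acts as a TATA box was not tested. Tbx18 alone held a T-box match, GGTGTCA, 217 bases before its start, and 8.61% of all promoters hold this motif. AGATAA and TNAAGTG, present in 9.99% and 10.1% of all promoters, were not in any of the 4 runs. Variants of these letters, such as TGATAA in the Isl1 run, were not searched, so the absence of a site for these factors is not shown.

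Most peaks at the 5 loci had values near the medians of their lists. The values used here are the caller's score and the whole-number signal value deposited beside it. The caller labels the score Log(ER), with a threshold of 2. The signal value is unnamed and not scaled between the lists. At these loci, peaks of equal value in the same list and chromosome had equal scores, so score and value are not independent measures. The AVC peaks had signal values from 26 to 110 (median 30) and scores from 2.03 to 12.95. The chamber peaks had values from 25 to 65 (median 30) and scores from 2.13 to 8.64. The median values over the whole lists were 31 and 29, and the highest were 572185 and 257052. The median score was 2.37 in the AVC, against 2.62 over its list, and 2.81 in the chambers, the same as over its list. A score of 5 or more was reached by 2 of the 29 AVC peaks (6.90%, 0.846 to 22.8) and by 4 of the 28 chamber peaks (14.3%, 4.03 to 32.7). In the whole lists these shares were 9.95% and 18.1%, inside both intervals. Peak density was 24.8 per Mb in the AVC and 23.9 per Mb in the chambers over the 1.17 Mb of windows, against 34.0 and 26.1 per Mb over the whole lists.

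**Figure D1:**
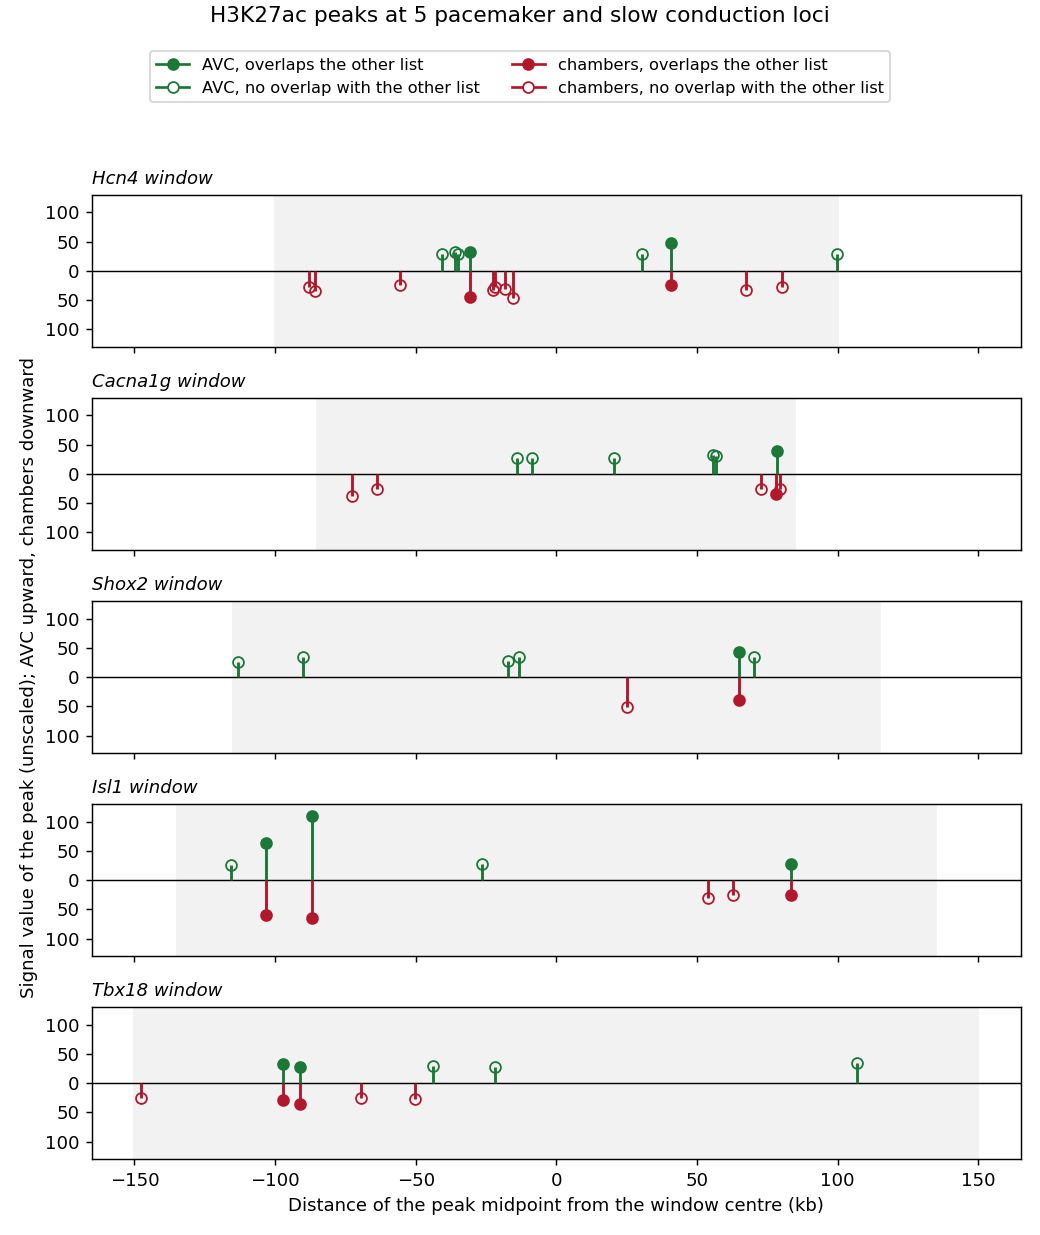
Signal value of each peak (vertical axis, unscaled, AVC upward and chambers downward) by the distance of its midpoint from the window centre in kb (horizontal axis), with the windows shaded. Filled circles overlap a peak of the other list; most peaks lie between 25 and 47, and the tallest, at 110 in the AVC and 65 in the chambers, face each other in the Isl1 window.

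Few of these peaks were called in both tissues. Of the 29 AVC peaks, 9 overlapped a chamber peak by at least 1 bp (31.0%, 15.3 to 50.8), against 23.2% of the whole AVC list. Of the 28 chamber peaks, 9 overlapped an AVC peak (32.1%, 15.9 to 52.4), against 31.6% of the whole chamber list. Both whole-list shares lie inside the intervals, so a difference in sharing from the rest of the genome was not detectable on these counts. Within 1 kb of a peak of the other list lay 31.0% of the AVC peaks, against 32.9% of the whole AVC list. For the chambers the share was 35.7% (18.6 to 55.9), against 47.5%. The direction thus depended on the rule. The 9 overlaps were 3 at Isl1, 2 each at Hcn4 and Tbx18, and 1 each at Cacna1g and Shox2. Every locus thus had peaks of its own in each tissue, 20 in the AVC and 19 in the chambers in all. Where a tissue had no call, acetylation below the caller's threshold may still have been there.

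The balance between the tissues varied from locus to locus, but on small counts. AVC peaks made up 7 of 18 peaks at Hcn4 (38.9%, 17.3 to 64.3), 6 of 11 at Cacna1g (54.5%, 23.4 to 83.3), 6 of 8 at Shox2 (75%, 34.9 to 96.8), and 5 of 10 at both Isl1 and Tbx18 (50%, 18.7 to 81.3). Over the whole series the AVC share of peaks was 56.6%, and all 5 intervals include it. Pooled over the loci the share was 50.9% (37.3 to 64.4). Hcn4 had the lowest AVC share and Shox2 the highest, and their intervals overlap. By covered bases the order was the same at both ends: the AVC share was 42.3% at Hcn4 and 80.0% at Shox2, against 64.3% over the whole lists.

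**Figure D2:**
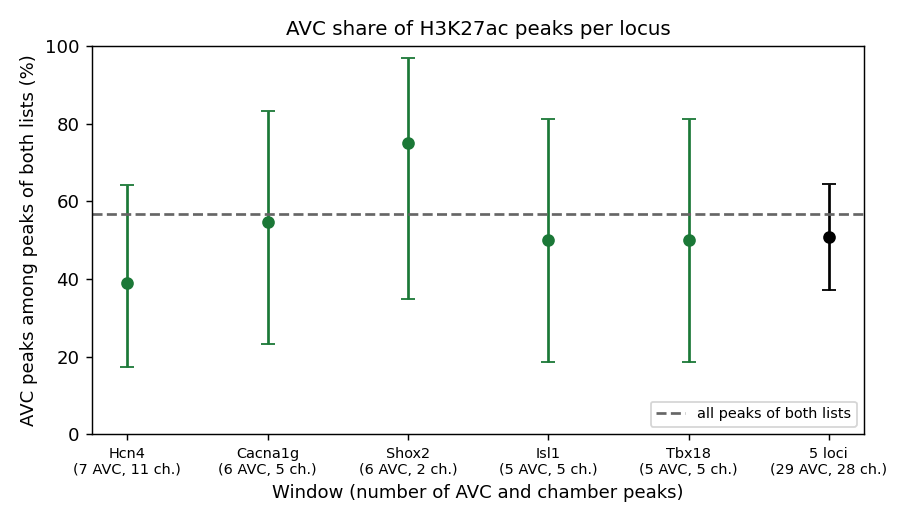
AVC peaks as a percentage of the peaks of both lists (vertical axis) in each window and over the 5 windows together, with exact 95% intervals as bars. The dashed line is the share over all peaks, 56.6%; Hcn4 lies lowest at 38.9% and Shox2 highest at 75%, and every interval crosses the line.

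Hcn4, the pacemaker channel gene, was the locus richest in chamber peaks. Its window, chr9:58600001-58800000, held 11 chamber peaks, 55 per Mb against 25.3 per Mb over chromosome 9, and 7 AVC peaks, 35 per Mb against 34.9. In the central 50% of the window the AVC held 6 of 12 peaks, and likewise 6 of 12 among peaks of at least 300 bp. The larger chamber count thus depended on the outer parts of the window and on narrow peaks. Scores reached 5.49 in the chambers and 4.54 in the AVC. Peaks gathered in a stretch of 25.7 kb, chr9:58659181-58684905, with 4 AVC and 5 chamber peaks, and the tissues lay side by side there. All 4 AVC peaks fell in its first 10.47 kb, chr9:58659181-58669653, with values of 29, 33, 28 and 33. The 5 chamber peaks fell in chr9:58669110-58684905, with values of 44, 32, 27, 31 and 47. A single position was called in both lists: the AVC peak chr9:58669070-58669653 (value 33, score 2.72) enclosed the chamber peak chr9:58669110-58669646 (value 44, score 4.99). The strongest chamber peak of the locus, chr9:58684323-58684905 (value 47, score 5.49, width 583 bp), had its nearest AVC peak 14670 bp away. By value it ranked 561 of 3067 chamber peaks on the chromosome.

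The strongest AVC peak at Hcn4 lay outside this stretch. It was chr9:58740767-58741055, 289 bp wide with a value of 47 and a score of 4.54, and ranked 617 of 4229 AVC peaks on the chromosome. A chamber peak of 125 bp overlapped it, chr9:58740756-58740880 (value 25, score 2.13). That value is the lowest called on chromosome 9 in the chambers. The strongest AVC peak without overlap was chr9:58663536-58664065 (value 33, score 2.72). The remaining AVC peaks, at chr9:58730361-58730733 and chr9:58799554-58799883, had a value of 28 each. The remaining chamber peaks had values from 25 to 34, the highest at chr9:58613901-58614260 (score 3.41).

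Cacna1g, the T-type calcium channel gene, had 5 of its 6 AVC peaks apart from its chamber peaks in its window, chr11:94220001-94390000. The overlap of 1 AVC peak (16.7%) stands against 23.2% of the whole AVC list. The middle of the window held AVC peaks only: 5 of them lay between positions 94290901 and 94361945, with values of 27, 27, 28, 32 and 31, and no chamber peak was called for 136.6 kb there. All 5 scored 2.59 or less, close to the threshold of 2; the highest values were at chr11:94360349-94360768 and chr11:94361392-94361945. Below that stretch lay the strongest chamber peak of the locus, chr11:94232370-94232697 (value 37, score 3.94), with no AVC peak within 40080 bp, and a weaker one at chr11:94241041-94241377 (value 25). Above it the tissues met once. The AVC peak chr11:94382988-94383639 (value 39, score 3.42), the strongest of its list at the locus, enclosed the chamber peak chr11:94383104-94383360 (value 35, score 3.63). Chamber peaks of value 26 flanked this pair, at chr11:94377585-94378000 and chr11:94384432-94384678, the second with the AVC peak 793 bp away. The pair lies nearer to the upper edge of the window, at 94390000, than to its centre.

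Shox2, which encodes a homeodomain factor of the sinus node, had the fewest chamber peaks, 2 in 230 kb (8.70 per Mb, against 25.1 on chromosome 3). Its 6 AVC peaks came to 26.1 per Mb, against 35.0. The window was chr3:66650001-66880000. The first chamber peak, chr3:66790045-66790412, had a value of 51 and a score of 6.45, the highest at the locus in either list, ranking 499 of 3911 chamber peaks on the chromosome. The nearest AVC peak to it was 38064 bp away. The other chamber peak, chr3:66829589-66830003 (value 39, score 4.40), lay inside the strongest AVC peak of the locus, chr3:66829515-66830125 (value 42, score 4.06, width 611 bp). The other 5 AVC peaks had no overlap. The highest of these was chr3:66751494-66751981 (value 35, score 3.14), followed by chr3:66674550-66675198 and chr3:66835129-66835604 at a value of 34 each. AVC peaks of 26 and 27 completed the list.

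Isl1, a LIM homeodomain factor of cardiac progenitors and the sinus node, had the strongest peaks of all 5 loci, and they were narrow and present in both tissues. Its window, chr13:116950001-117220000, held 5 peaks of each list. At chr13:116998049-116998225 the AVC peak had a value of 110 and a score of 12.95 over 177 bp. The chamber peak there, chr13:116998041-116998171, had a value of 65 and a score of 8.64 over 131 bp. They ranked 87 of 4649 AVC and 229 of 3207 chamber peaks on the chromosome. At a lower position lay another pair, the AVC peak chr13:116981625-116981810 (value 64, score 7.05, 186 bp) and the chamber peak chr13:116981610-116981896 (value 59, score 7.59, 287 bp). These were the only AVC peaks of the 5 loci with a score of 5 or more, and 2 of the 4 such chamber peaks.

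In the whole lists, narrow strong peaks were nearly all shared. No control library is given in the sources used here, and whether such narrow peaks mark acetylation was not tested. Of the peaks under 300 bp that scored 5 or more, 98.1% of 2705 in the AVC and 94.7% of 2771 in the chambers overlapped the other list, against 65.2% and 63.7% at 300 bp or more. The chamber peaks of Hcn4 and Shox2 with scores of 5 or more were at least 300 bp wide, and neither overlapped an AVC peak. The AVC peaks of the strong Isl1 pairs lay 86.9 and 103.3 kb from the centre of the window. The central 50% of the window held 1 AVC peak, chr13:117058124-117058754 (value 27, score 2.14), and 2 chamber peaks, chr13:117138746-117139064 (value 31, score 3.02) and chr13:117147594-117147801 (value 25). The remaining pair, at chr13:117168194-117168540, was weak, with values of 28 in the AVC and 25 in the chambers. The last AVC peak, chr13:116969121-116969566, had a value of 26. Below the window, no peak of either list was called for 377.4 kb from its edge.

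**Figure D3:**
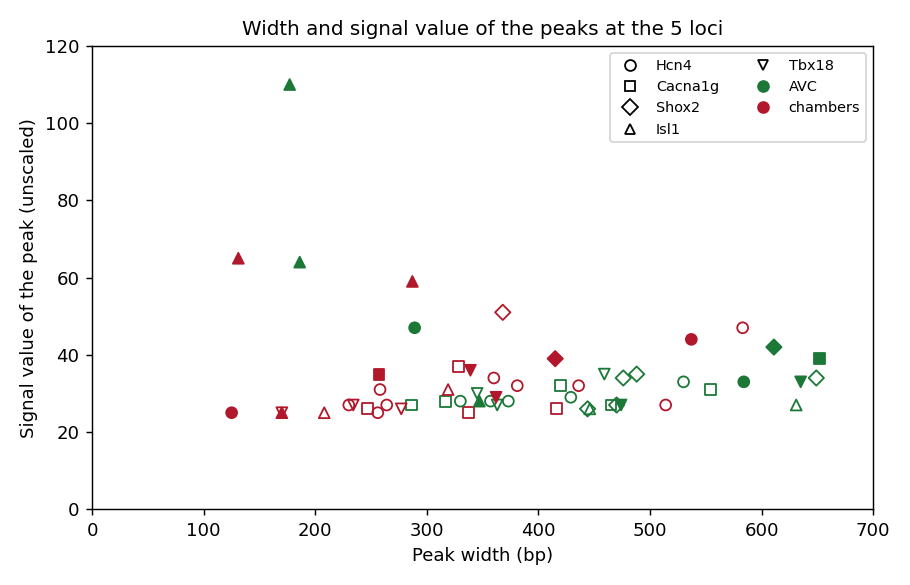
Signal value (vertical axis, unscaled) against width in bp (horizontal axis) of the 57 peaks, with the locus given by the symbol and the tissue by the colour, and filled symbols for peaks that overlap the other list. The Isl1 triangles with values of 59 to 110 lie at widths of 131 to 287 bp, apart from the other peaks.

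Tbx18, a T-box factor of the venous pole and the epicardium, carried no peak of score 5 or more in either tissue, and neither did Cacna1g. Its window, chr9:87450001-87750000, held 5 peaks of each list, 16.7 per Mb in both, the lowest AVC density of the 5 windows. Both overlaps fell in 6.40 kb at chr9:87502579-87508981. In the first, the AVC peak chr9:87502579-87503213 (value 33, score 2.72) enclosed the chamber peak chr9:87502750-87503111 (value 29, score 2.67). In the second, the order was turned: the chamber peak chr9:87508643-87508981 had a value of 36 and a score of 3.71, the highest chamber value of the locus, and the AVC peak chr9:87508486-87508959 had 27 and 2.05. The strongest AVC peak, chr9:87706759-87707217 (value 35, score 2.97), stood alone, with no chamber peak within 156996 bp. Other AVC peaks lay at chr9:87555958-87556302 (value 30) and chr9:87577897-87578259 (value 27). The 3 unshared chamber peaks had values of 25 to 27, the highest at chr9:87549530-87549763. From the Tbx18 AVC peak of value 27 to that of value 35 the window was free of calls in both lists over 128.9 kb, the longest such stretch at the 5 loci.

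Where both tissues had a peak, the ratio of their values varied from pair to pair. The values are unscaled, so they do not show how alike the acetylation was. The 9 pairs had a median AVC-to-chamber ratio of the unscaled value of 1.11 (range 0.75 to 1.88), and all 22319 overlapping pairs of the series also had a median of 1.11 (interquartile range 0.80 to 1.53). The AVC value was the higher in 7 of the 9 pairs, against 58% of all pairs. By the caller's score the AVC peak was the higher in 4 of the 9 pairs (44.4%), against 46.6% of all pairs. The direction thus depended on the measure, but the measures are not independent. On chromosome 9 a value of 47 scored 4.54 in the AVC and 5.49 in the chambers. The value is unscaled, and whether the score can be compared between the lists is not known. The chamber value was the higher in the first Hcn4 pair and the second Tbx18 pair, at a ratio of 0.75 in each. The highest ratios were 1.88 in the second Hcn4 pair and 1.69 in the second Isl1 pair. Both of those pairs were under 300 bp wide in each list, as was the first Isl1 pair at a ratio of 1.08. Pairs narrow in both lists had a median ratio of 1.64 over the whole series (n = 3284). In these ratios, depth and tissue cannot be told apart. At least 91.2% of the shorter peak was covered in each pair, although widths could differ, as at Cacna1g (652 and 257 bp). No whole-series value of this coverage is given. In 5 of the 9 pairs the chamber peak lay wholly inside the AVC peak, against 25.7% of all pairs. No interval was computed for this share, and on 9 pairs the difference was not tested.

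**Figure D4:**
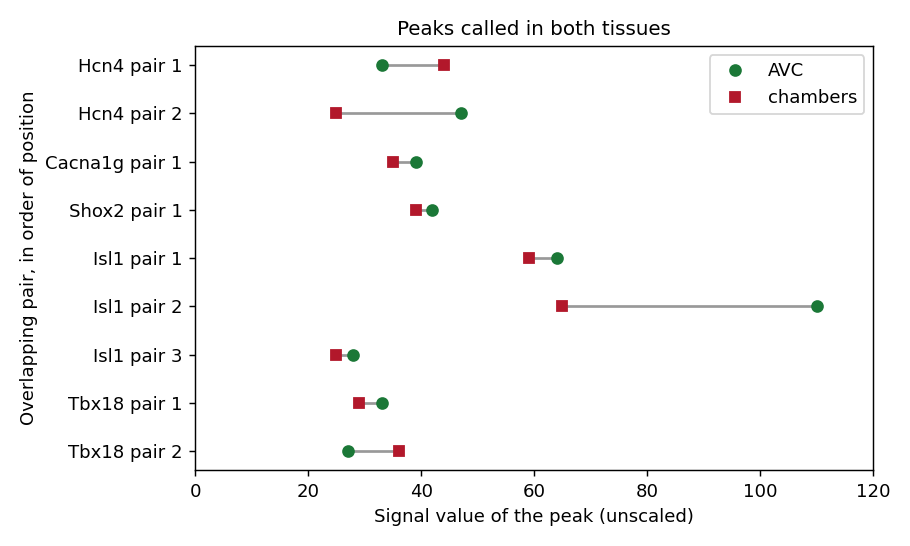
Signal values (horizontal axis, unscaled) of the AVC peak (circle) and the chamber peak (square) in each of the 9 overlapping pairs, numbered by position within a locus. The unscaled AVC value is the higher in 7 pairs, whereas the AVC score is the higher in 4; values are farthest apart at the second Isl1 pair (110 and 65).

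AVC peaks were wider than chamber peaks at these loci, as in the whole lists. The median width was 446 bp (interquartile range 347 to 530) in the AVC and 303 bp (243.75 to 371.25) in the chambers, against 472 and 325 bp over the whole lists. Under 300 bp were 4 of 29 AVC peaks (13.8%, against 9.13% of the list) and 14 of 28 chamber peaks (50%, against 41.4%). The 4 narrow AVC peaks were the 2 strong ones at Isl1, the strongest one at Hcn4 and one of value 27 at Cacna1g.

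Some peaks lay close to the edges that defined the windows. The last Hcn4 peak, in the AVC, had its midpoint 0.282 kb inside the upper edge, and an AVC peak of value 31 lay 2.39 kb below the lower edge. At Shox2 the first AVC peak (value 26) was 1.86 kb inside, and at Tbx18 the first chamber peak (value 26) 2.24 kb inside. Beyond Cacna1g, a chamber peak of value 32 lay 6.95 kb outside the upper edge. None of these 3 peaks inside an edge was among the 3 strongest of its list and window.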

How the data were processed

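H3K27ac ChIP-seq gave 1 library from the AVC and 1 from the chambers, grouped by the tissue label. Per the submitters' processing notes, Bowtie, SAMtools and mm9 were used, without versions or roles. Peaks were called per library with OccuPeak 1.3, per the file headers, chromosome by chromosome, at a Log(ER) threshold of 2, with a read length of 50 and modelled fragment lengths of 60.5 (AVC) and 68 (chambers). The score deposited by the authors is that Log(ER), log base not stated, and the deposited signal value is unnamed and unscaled, so values rank peaks within a list only. A control library and the sequencing depth are not given in the sources used here.

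Starts were converted from 0-based to 1-based mm9 positions. Overlap counting was tested on simulated data and against bedtools 2.31.1. Chromosome densities use the span from first to last peak. Named peaks are the 3 highest signal values per locus and list, the highest unshared one, and pairs with a score of at least 5; further positions were chosen after their values were seen. The loci, windows and measures were chosen with earlier results of these data known. Motifs, runs of peaks at most 10 kb apart and the width classes are likewise descriptions. With 1 library per tissue, no test was made. Alternatives covered the overlap, the peak filter and the window. Python 3.11.15, pandas 2.3.3, numpy 2.4.6, scipy 1.17.1 and matplotlib 3.10.9 were used.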

Additional observations from a re-analysis of the deposited data

How the results depend on the processing

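Of 53 shares recomputed under other settings, 49 stayed inside the interval of the reported value: the AVC share of peaks at each locus and the overlap shares over the 5 loci. The intervals are wide, so this count does not measure stability: at Isl1 both 33.3% and 75% lay inside. Taking peaks with any overlap with the window changed none of the shares. Nor did a required overlap of 50% of the shorter peak, where it applied. At a score of at least 3 the AVC share fell to 16.7% at Hcn4 (1 of 6 peaks) and to 0% at Tbx18 (0 of 1). In the central 50% of each window it was 100% at Cacna1g (3 of 3), and 14.3% (2 of 14) of the AVC peaks of the 5 loci overlapped a chamber peak. These settings leave fewer peaks by construction. The AVC share over all peaks at a score of at least 3 was not computed. At a score of 5 or more the whole lists held 8716 AVC and 12137 chamber peaks. That cut thus puts AVC peaks in the minority over the whole series too. Over all settings the AVC share ran from 16.7% to 50% at Hcn4, 33.3% to 100% at Cacna1g, 66.7% to 75% at Shox2, 33.3% to 75% at Isl1 and 0% to 71.4% at Tbx18. Windows widened by 50 kb held 44 AVC and 45 chamber peaks, and a score of at least 3 left 8 and 13. At equal peak numbers 17 AVC peaks were left against 28 in the chambers. This setting kept the 67092 AVC peaks of highest score, as many as the chamber list holds. The AVC share over all peaks was then 50% by construction. It was 26.7% at Hcn4, 37.5% at each of Cacna1g, Isl1 and Tbx18, and 66.7% at Shox2. No paired analysis was possible because each tissue has 1 library. Depth is unknown, so the absence of a call is weak evidence.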
